A study of Drosophila melanogaster with 3 samples.

Results

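Deaf1 summits that stood beside a transcription start site (TSS) without lying at one were taken from the reproducible peak set of Deaf1 in fly embryos. A member is a summit over 500 and at most 2000 bp from the nearest protein-coding TSS that lies in no exon of a protein-coding gene. The rule found 1428 members among 8667 summits, which is 16.5% (95% exact Clopper-Pearson interval 15.7 to 17.3%). Of the other summits, 4411 lay within 500 bp of a TSS and are called promoter summits here. A further 2607 lay over 2000 bp from every TSS and outside exons and are called distal summits, and 221 lay in exons over 500 bp from a TSS. Within the reproducible set the rule used position alone, and signal, sequence, orientation and gene names were not part of it. The set itself was selected for peaks that recur, and genes differ in how much DNA the rule accepts beside them.

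DNA bound by Deaf1 in Drosophila melanogaster was enriched by chromatin immunoprecipitation and sequenced (ChIP-seq), with an antibody against green fluorescent protein (GFP). All 3 biological replicates belong to 1 group: whole embryos of pooled sex, collected at 0 to 24 h, from the Deaf1 strain, a transgenic line in which GFP is fused to the C terminus of Deaf1. The labels name no untagged embryos or other condition among these samples, and the possible control experiment they point to was not analysed here. Per the file headers, each replicate list had been called against 1 control alignment. Every cell type and stage of embryogenesis is mixed in each sample, the bound protein is the tagged one, and the sequences that drive the transgene are not given in the labels.

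Deaf1 is a transcription factor with a SAND domain, a DNA-binding fold that contacts short sites built around the letters TTCG. Its name comes from work on the control region of the Hox gene Deformed, and in flies it is also known for a part in the expression of immune peptides. In the compact fly genome, control elements for transcription often lie close to the start site, in the upstream intergenic DNA or in the introns near the start of a gene. The promoter-adjacent positions described here overlap that space.

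The 6 strongest members are printed to show what lay under the highest peaks. Each is the 101 bp window centred on the summit, on the plus strand of dm6, read 5′ to 3′ from the RefSeq genome. Capitals mark TTCGG or its reverse complement CCGAA, the extended Deaf1 word. The windows are chr2L:6479393-6479493 for Sec61alpha, chr3L:10856712-10856812 for tna, chrX:1276625-1276725 for Atf3, chrX:3778135-3778235 for Tlk, chr2L:20716172-20716272 for Hr38 and chrX:6862840-6862940 for CG43736.
Sec61alpha: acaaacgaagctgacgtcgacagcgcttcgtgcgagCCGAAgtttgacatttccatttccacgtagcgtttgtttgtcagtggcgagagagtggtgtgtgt
tna: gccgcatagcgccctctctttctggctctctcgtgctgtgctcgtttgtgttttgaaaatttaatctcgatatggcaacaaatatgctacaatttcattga
Atf3: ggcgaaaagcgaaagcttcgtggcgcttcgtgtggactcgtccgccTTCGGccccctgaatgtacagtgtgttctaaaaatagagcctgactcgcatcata
Tlk: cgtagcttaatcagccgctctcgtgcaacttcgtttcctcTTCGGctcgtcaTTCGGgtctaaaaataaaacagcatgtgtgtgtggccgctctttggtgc
Hr38: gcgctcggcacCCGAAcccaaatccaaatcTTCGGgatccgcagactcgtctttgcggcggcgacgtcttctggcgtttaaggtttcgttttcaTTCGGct
CG43736: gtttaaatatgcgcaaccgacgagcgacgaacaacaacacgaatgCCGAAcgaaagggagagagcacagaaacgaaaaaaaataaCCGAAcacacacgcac

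The Hr38 window held 3 such words, the Tlk and CG43736 windows 2 each, the Sec61alpha and Atf3 windows 1 each and the tna window 0. The tna window also lacked the shorter core TTCG, and it held the letters CTCTC, the complement of GAGAG, to which GAGA factor binds. Next, 5 of the 6 members with 4 or more extended words are printed, to show the repeated word at the other end of the range. They are CG13894 at chr3L:699800-699900, mas at chr3L:4166639-4166739, Eip75B at chr3L:17972540-17972640, Tsp74F at chr3L:17893822-17893922 and CG9747 at chr3R:30192553-30192653.
CG13894: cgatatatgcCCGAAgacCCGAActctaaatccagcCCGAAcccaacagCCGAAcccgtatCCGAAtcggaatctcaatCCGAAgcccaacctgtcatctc
mas: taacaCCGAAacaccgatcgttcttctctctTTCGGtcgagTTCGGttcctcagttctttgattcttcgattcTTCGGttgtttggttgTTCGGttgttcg
Eip75B: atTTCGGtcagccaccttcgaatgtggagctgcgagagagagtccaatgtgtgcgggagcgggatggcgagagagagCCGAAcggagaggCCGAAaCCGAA
Tsp74F: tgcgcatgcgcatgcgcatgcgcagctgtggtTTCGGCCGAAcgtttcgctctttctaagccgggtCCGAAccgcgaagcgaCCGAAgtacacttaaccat
CG9747: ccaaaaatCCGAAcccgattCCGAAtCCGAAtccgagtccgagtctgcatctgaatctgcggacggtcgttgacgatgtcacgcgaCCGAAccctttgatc

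The CG13894 window held 6 words, the mas window 5, and the Eip75B, Tsp74F and CG9747 windows 4 each. In the Tsp74F window a pair of the words abutted head to head, TTCGG directly before CCGAA, and so read the same on both strands. Signal did not follow the number of words among these windows: the IDR signal was 10403 at CG13894 and 9486 at Eip75B, but 669.5 at mas, 1317 at Tsp74F and 1018 at CG9747. The deposited signal is the authors' own value per peak and is not scaled between lists. Replicate values are therefore given as multiples of the median signal of that replicate's own list of 30000 peaks. On that scale the mas summit reached 4.57, 4.74 and 4.56 in replicates 1, 2 and 3, and the CG13894 summit reached 74.6, 67.8 and 68.6.

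Deaf1 summits were dense in this band compared with non-exonic DNA farther from start sites. The members' positions cover 16.4 Mb, 12.2% of the 6 chromosome arms, and held 87.3 summits per Mb. Distal non-exonic DNA, introns included, held 34.1 per Mb, and DNA within 500 bp of a TSS held 287.7 per Mb. In the 8667 strongest peaks of each replicate list, members reached 85.1, 86.3 and 85.6 per Mb in replicates 1, 2 and 3. The distal densities were 33.3, 33.0 and 32.1 per Mb, so every replicate had the members above the distal summits with no overlap. The ratio of members to distal summits was 2.56 in the IDR set and 2.61 ± 0.0572 over the replicates (SD, n = 3), with an exact two-sided sign-flip permutation p = 0.25. That is the smallest p that 3 replicates allow, here and in all sign-flip tests below, so none of them can pass 0.05.

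Within the band the density declined beyond 1000 bp. Summits numbered 92.9 per Mb at 500 to 750 bp and 102.7 per Mb at 750 to 1000 bp. The value was 94.1 per Mb at 1000 to 1250 bp, 84.8 at 1250 to 1500 bp, 71.2 at 1500 to 1750 bp and 70.8 at 1750 to 2000 bp. Just beyond the band, at 2000 to 2250 bp, it was 61.1 per Mb, against 142.6 per Mb for non-exonic summits at 250 to 500 bp. The steep part of the decline therefore lay inside 500 bp, and the band itself formed a shallow slope. Signal showed no such slope: its median was 508.0 in the 500 to 750 bp bin and 473.0 in the 1750 to 2000 bp bin, with values between 448.2 and 506.2 in the bins between. At the inner edge of the rule, 132 members lay at 501 to 599 bp with a median signal of 509.7, while 135 non-exonic summits just outside it, at 401 to 499 bp, had a median of 537.5. At the outer edge, 69 members at 1901 to 2000 bp had a median signal of 486.4, and 50 summits at 2002 to 2100 bp had 446.9.

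**Figure D1:**
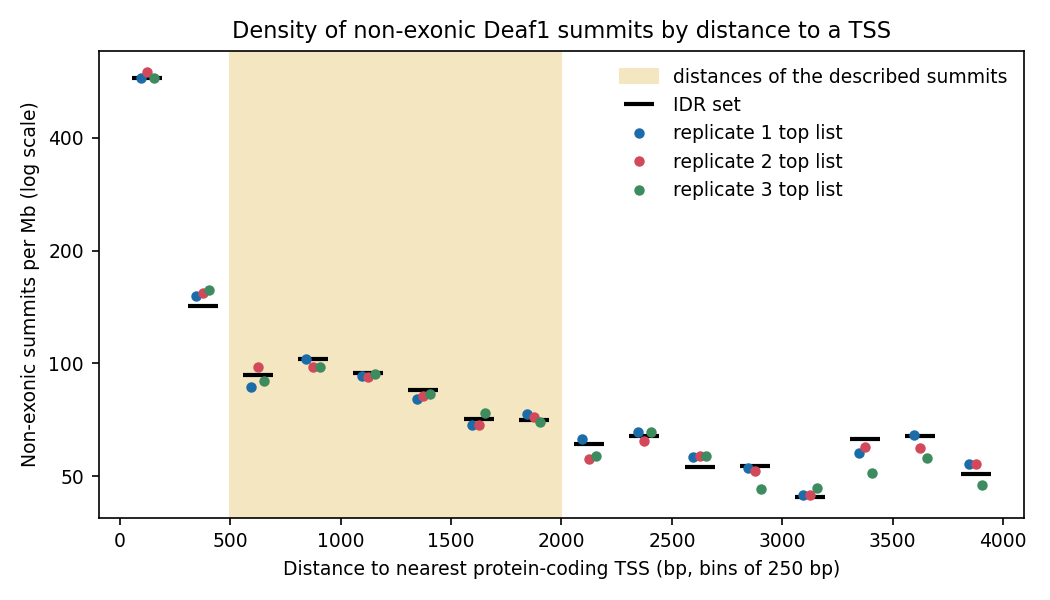
Non-exonic Deaf1 summits per Mb of non-exonic DNA (log scale) by distance to the nearest protein-coding TSS, in bins of 250 bp. Black bars are the IDR set and points the 8667 strongest peaks of each replicate. Inside the shaded band the IDR density ran between 70.8 and 102.7 per Mb, below the 142.6 per Mb at 250 to 500 bp and above the 61.1 per Mb at 2000 to 2250 bp.

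Most members were intronic. Introns held 996 members, 69.7% (interval 67.3 to 72.1%; 69.4 ± 0.727% over the replicates, SD, n = 3), while introns make up 63.3% of the DNA that the rule accepts. The remaining 432 were intergenic. The largest class comprised 607 members downstream of the TSS in an intron of the nearest gene (42.5%), and 543 of all members (38.0%) lay in the first intron of a transcript that starts at that TSS. Upstream intergenic DNA held 387 members (27.1%), and 299 (20.9%) lay upstream of the nearest TSS but still inside an intron of the same gene, ahead of an internal start. A further 74 members lay upstream of the nearest gene within an intron of another gene.

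Upstream and downstream sides were close to balanced. Upstream positions held 760 members, 53.2% (interval 50.6 to 55.8%), and make up 50.03% of the accepted DNA. Both shares were highest nearest the TSS. At 500 to 750 bp, 60.1% of summits were upstream against 56.3% of the DNA, and the replicates gave 60.4 ± 1.01% (SD, n = 3). At 1750 to 2000 bp, 51.5% of summits were upstream against 45.8% of the DNA, with 49.8 ± 1.22% over the replicates.

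The upstream members were stronger. Their median IDR signal was 517.4, against 438.5 for downstream members, a ratio of 1.18. The replicates gave ratios of 1.18, 1.14 and 1.22, above 1 in 3 of 3 (exact sign-flip p = 0.25). Where the interval held no promoter summit the ratio was 1.14, and 1.15 ± 0.0439 over the replicates (SD, n = 3). Intergenic members likewise had a median signal of 532.4, against 455.8 for intronic members, with replicate ratios of 1.20, 1.13 and 1.19. These splits overlap, since 387 of the 432 intergenic members lay upstream. On the downstream side the median was 445.0 for the 45 intergenic members and 439.4 in introns of the nearest gene. On the upstream side it was 550.9 and 494.5.

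In strength the members stood below promoter summits and slightly above distal ones. The median IDR signal was 474.7 in members, 648.9 in promoter summits and 437.3 in distal summits. The ratio of members to promoter summits was 0.732, and 0.750, 0.750 and 0.761 in replicates 1, 2 and 3. The ratio to distal summits was 1.09, and 1.06, 1.10 and 1.04 in the replicates, so that difference was small but had 1 direction in 3 of 3. Members ranged in IDR signal between 256.1 and 22633, and 9 of them were among the 100 strongest summits of the set.

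The members were well shared by the replicates. A total of 1376 members (96.4%; interval 95.3 to 97.3%) lay inside a peak of all 3 replicate lists, 47 in a peak of 2 lists and 5 in a peak of 1. The share rested on a generous criterion: it was 93.1% where each replicate's own summit had to lie within 100 bp, and 66.0% where the intervals had to overlap reciprocally by at least 50%. Since the IDR procedure selects for peaks that recur, this describes the set and is not an independent check. The rank correlation of signal over the 1376 shared members was 0.820 for replicates 1 and 2, 0.864 for replicates 1 and 3, and 0.826 for replicates 2 and 3. These points share a genome and its composition, so the coefficients are a description.

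The strongest member lay in Sec61alpha, 1023 bp downstream of its TSS in an intron. Sec61alpha encodes the pore-forming subunit of the channel that carries new proteins into the endoplasmic reticulum. The deposited interval was chr2L:6478825-6481814 (dm6), its IDR signal was 22633, and it stood at 150.9, 162.6 and 143.7 times the list median in replicates 1, 2 and 3. Next was tna, which encodes a SUMO ligase-like protein of the Trithorax group, with a summit 1127 bp upstream of an internal TSS in chr3L:10855326-10858351. Its values were 131.9, 175.9 and 129.8 times the list median, so replicate 2 lay well above the other two.

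Atf3, a bZIP transcription factor, had its summit 1391 bp upstream in chrX:1274575-1277621 at 114.7, 107.7 and 110.6 times the list median. Tlk, the Tousled-like kinase of chromatin assembly, had one 1958 bp upstream of an internal TSS at 107.8, 117.5 and 107.4 times. Hr38, the fly nuclear receptor of the NR4A family, had an intergenic summit 1634 bp upstream at 99.9, 123.8 and 97.1 times. The sixth lay in an intron of CG14434, 998 bp upstream of the nearest TSS, that of CG43736, and reached 96.8, 99.7 and 92.6 times. Its interval, chrX:6859155-6863930, is wide, and the nearest TSS had no summit within 500 bp, unlike that of the other 11.

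The remaining members among the 12 strongest lay near NFAT (mean 90.6 ± 8.43 times the list median, SD, n = 3), E(spl)m3-HLH, a basic helix-loop-helix repressor of the Notch response (85.4 ± 7.31), and hebe (84.1 ± 6.02). The BTB factor rib, which acts in the shaping of tubular organs, averaged 77.1 ± 8.44, the homeodomain factor dve 72.9 ± 10.3 and the knirps relative knrl 73.2 ± 11.5. Replicate 2 was the highest of the 3 at 10 of the 12 sites, and Atf3 and hebe were the exceptions. Of these 12, 7 shared their interval with a promoter summit, among them Sec61alpha, tna and Atf3.

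**Figure D2:**
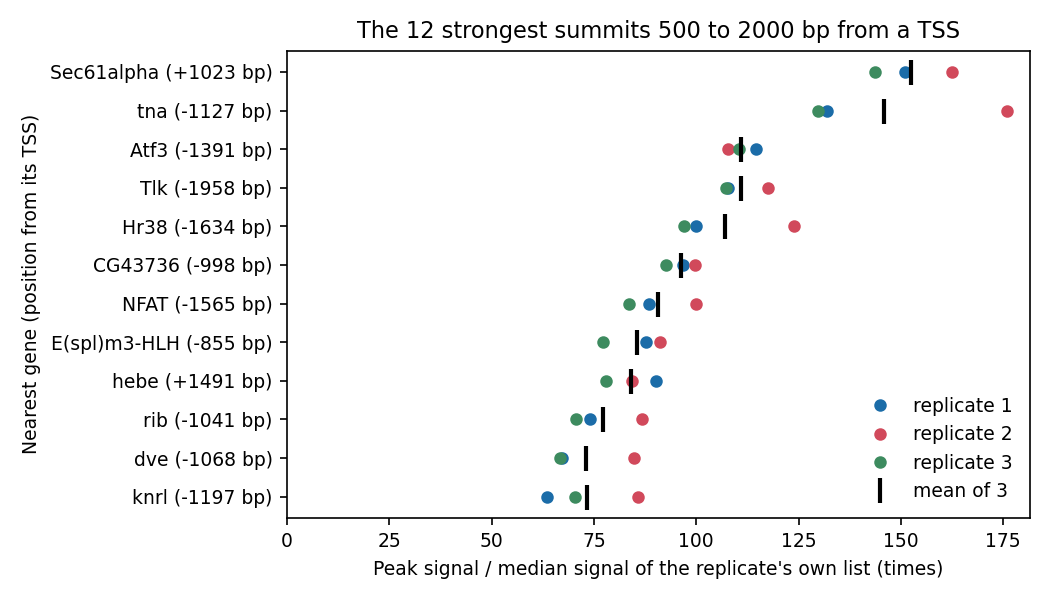
Signal of the 12 strongest members in each replicate, divided by the median signal of that replicate's list (linear axis; points are replicates, bars the mean of 3). Sec61alpha ran between 143.7 and 162.6 times the list median and knrl, the twelfth by IDR signal, between 63.4 and 85.8 times.

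Members tended to stand beside bound start sites. The nearest TSS had a promoter summit within 500 bp at 810 members, 56.7% (interval 54.1 to 59.3%; 55.4 ± 1.55% over the replicates, SD, n = 3). Of the DNA that the rule accepts, 33.0% has a bound TSS as its nearest, and 27.6% of all 19607 TSSs were bound. At these 810 pairs the member was the weaker site more often: it exceeded the strongest summit at its own TSS in 260 of 810, or 32.1% (interval 28.9 to 35.4%). The replicates gave 31.6, 31.8 and 30.7%. The median of the member's signal over the start site's signal was 0.632, and 0.629, 0.613 and 0.621 in the replicates.

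Members beside a bound TSS had a median IDR signal of 507.5, against 447.0 for the 618 others. The ratio was 1.14, with 1.12 ± 0.0140 over the replicates (SD, n = 3), and it narrowed to 1.03 among members whose interval held no promoter summit. A total of 130 members (9.10%; interval 7.66 to 10.7%) shared their deposited interval with a promoter summit, and the replicate lists gave 5.56 ± 0.761%. Those 130 had a median signal of 1022, against 451.2 for the other 1298, and their intervals had a median width of 1747 bp, against 435 bp. The part that spread from the promoter peak has in the signal of these 130 was not tested. Of all members, 622 (43.6%) had another IDR summit within 1000 bp, and 1110 (77.7%) were alone in their interval.

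Because the rule looks at protein-coding genes alone, some members lay at starts of other genes. There were 82 members (5.74%; interval 4.59 to 7.08%) within 500 bp of an annotated non-coding TSS, 74 of them at genes annotated ncRNA, while 4.32% of the accepted DNA lies that close. The replicates gave 6.13 ± 0.234% (SD, n = 3). Median signal was 598.9 at these 82 members, against 468.4 at the others, and the replicate ratios were 1.17, 1.23 and 1.27. The 3 strongest were the E(spl)m3-HLH member, 108 bp downstream of the start of lncRNA:CR43644, a member in an intron of the receptor phosphatase gene Lar, 77 bp upstream of lncRNA:CR44978, and a member 1846 bp from the TSS of CG13949, 86 bp upstream of lncRNA:CR45345. Relative signals at the Lar site were 43.9, 39.7 and 37.8 times the list median, and those at the CG13949 site 38.1, 36.1 and 32.9 times.

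The Deaf1 word was concentrated at the members' summits. TTCGG lay within 50 bp of the summit in 368 members, 25.8%, and in 13.7% of equal windows centred 300 bp to the right. The difference was 12.04 percentage points (exact two-sided McNemar test, adjusted p = 1.1e-14 by Benjamini-Hochberg over 15 words), and 11.5 ± 0.544 points over the replicates (SD, n = 3). The shorter core TTCG, whether or not part of TTCGG, was in 61.1% of summits and 52.7% of flanks (same exact test, adjusted p = 3.8e-05). Those 873 summit and 752 flank windows include the 368 and 196 with TTCGG. Windows with TTCG but no TTCGG were not tested apart. Against windows centred 300 bp to the left, the TTCGG difference was smaller, 8.40 points (exact McNemar test, adjusted p = 1.4e-06). At the summit itself the extended word reached 3.74 occurrences per 1000 positions in the 50 bp on the TSS side and 3.43 in the 50 bp on the other side. The rate was 1.39 and 1.32 at 450 to 500 bp from the summit on these sides.

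Still, members carried the word less often than promoter summits did. Its share was 25.5, 24.3 and 26.1% of members in replicates 1, 2 and 3, against 31.0, 30.3 and 30.4% of promoter summits, with no overlap. The difference was -4.81 points in the IDR set and -5.25 ± 0.886 points over the replicates (SD, n = 3; exact sign-flip p = 0.25). Distal summits had shares of 27.4, 25.4 and 28.1%, and the members were lower by a smaller amount, -1.68 ± 0.469 points, in 3 of 3 replicates. A total of 1060 members (74.2%) held no TTCGG in the window, 274 held 1, 65 held 2, 23 held 3, 4 held 4, 1 held 5 and 1 held 6.

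Members with repeated words were stronger. The median IDR signal was 693.4 for the 94 members with 2 or more words, 490.0 with 1 word and 459.2 with none. The ratio of 2 or more words to none was 1.46, 1.51 and 1.59 in replicates 1, 2 and 3, and 1.42 in the IDR set where no promoter summit shared the interval. The ratio of 1 word to none was 1.06, 1.00 and 1.12, or 1.06 ± 0.0572 (SD, n = 3), close to 1 beside that spread. Across all 1428 members the rank correlation of word number with signal was only 0.0958, as a description.

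**Figure D3:**
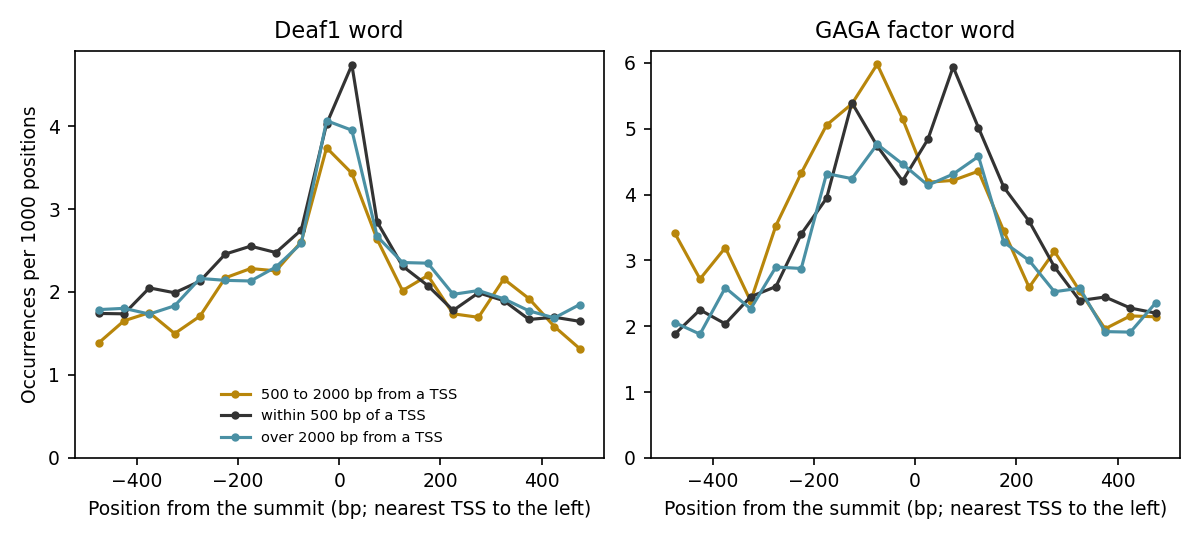
Occurrences per 1000 positions of the extended Deaf1 word (left) and of the GAGA factor word (right) around the summits, in bins of 50 bp, with the nearest TSS to the left. In the members the Deaf1 word rose to 3.74 beside the summit, and the GAGA factor word was broader with its highest value, 5.98, centred 75 bp toward the TSS.

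GAGAG was the third of the 15 words past the test, beside TTCGG and the TTCG nested in it. It is bound by GAGA factor, the product of Trl, which opens chromatin at promoters and Polycomb sites. It lay at 21.7% of members' summits and in 15.7% of flanks, a difference of 6.02 points (exact McNemar test, adjusted p = 0.00020) and of 7.71 ± 1.18 points over the replicates (SD, n = 3). The word was likewise more frequent at promoter and distal summits than in their flanks, by 8.25 and 7.17 points. In the members it was spread more widely than the Deaf1 word and was more frequent on the side of the nearest TSS. Between 25 and 300 bp from the summit it occurred 4.86 times per 1000 positions on the TSS side and 3.62 times on the far side, a ratio of 1.34. Replicates 1, 2 and 3 gave 1.33, 1.26 and 1.29 (exact sign-flip p = 0.25). For TTCGG the same ratio was 1.01, 1.12 and 1.05. The comparison of sides was chosen after the profile had been seen.

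The other 12 words did not pass the test between summit and flank. Of these, 3 words that mark many fly promoters were scarcer at members than at promoter summits in 3 of 3 replicates. CGATA, of the insulator protein BEAF-32, was in 10.99% of members and 17.5% of promoter summits. TATCGAT, the core of the element bound by DREF, was in 0.910% of members (13) and 3.51% of promoter summits. Every window with TATCGAT also holds CGATA, so the BEAF-32 shares include the DREF ones. GGTCACAC, of the promoter factor M1BP, was in 0.140% of members, only 2 of them, and in 1.31% of promoter summits. The TATA box word TATAAA did not share this, with 11.97% of members and 11.7% of promoter summits, and was lower at members in 0 of 3 replicates. At distal summits the words of BEAF-32, DREF and M1BP had shares of 10.5, 0.844 and 0.153%. CACACA, a simple repeat, was in 15.6% of members' summits, against 10.9% of promoter and 11.2% of distal summits. It was about as frequent in the members' own flanks, at 15.3%. So were GATAA (20.2% at summits, 20.9% in flanks) and the homeodomain word TAATTA (6.51% and 7.91%), both more frequent in members than in promoter or distal summits in 3 of 3 replicates.

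**Figure D4:**
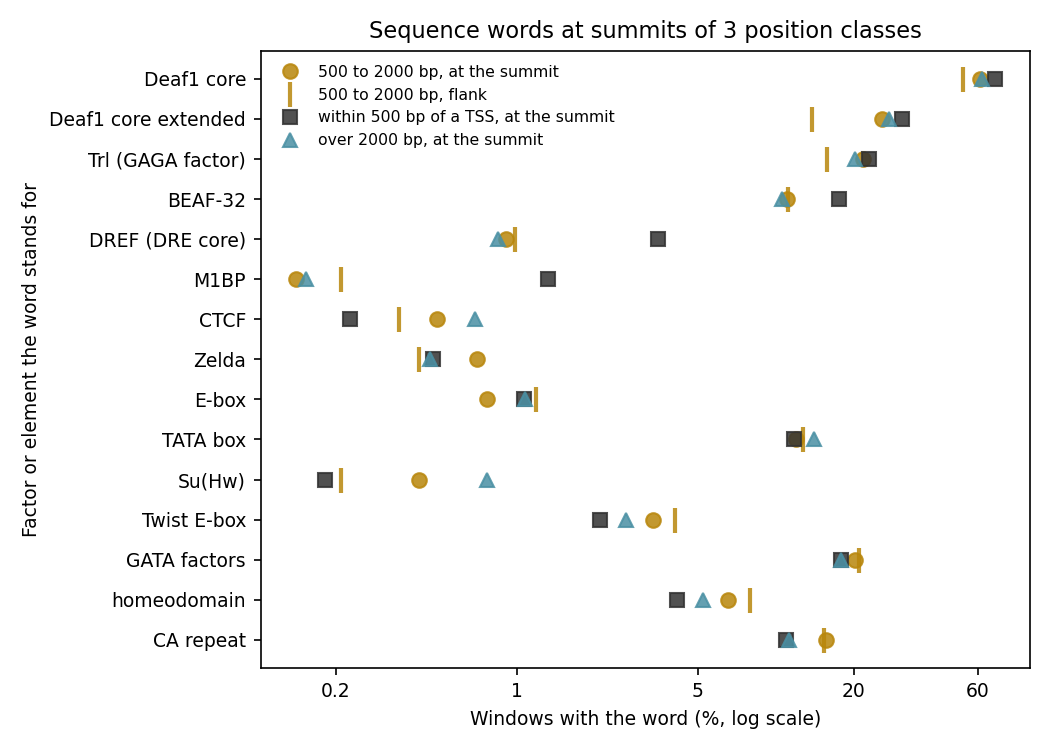
Share of windows holding each of 15 words (log scale), for members at the summit and in the flank and for promoter and distal summits. The extended Deaf1 word was in 25.8% of members' summits and 13.7% of their flanks. The words of BEAF-32, DREF and M1BP were most frequent at promoter summits.

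Among all 2080 6-mers, 49 (2.36%) were more frequent at members' summits and 18 (0.865%) more frequent in flanks, by exact McNemar tests with Benjamini-Hochberg adjusted p under 0.05. Of the 49, 45 contained CG, among 604 tested with CG, and 18 contained TTCG, among 48 tested. The leading 6-mer was CCGAAG, in 8.96% of summits and 1.61% of flanks (exact McNemar test, adjusted p = 7.9e-16). By the same exact test it was followed by AGCCGA with 10.4 and 3.78% (adjusted p = 2.1e-09) and ACGAAG with 7.70 and 2.52% (adjusted p = 1.8e-07). G+C content was slightly higher at the summits, with a mean of 42.9%, against 41.6 and 41.0% at 300 bp to the left and right. At promoter summits it was 45.8%. The members' G+C did not peak at the summit itself. It was 42.7 and 43.0% in the 50 bp bins beside it and highest, 44.2 and 44.3%, in those centred 125 bp away. The composition was uneven: 273 members (19.1%) had at most 30 G or C bases in the 101 bp, against 15.8% of windows 300 bp to the right and 13.97% of promoter summits. Distal summits were like the members in this, with a mean G+C of 43.1% and 20.3% of windows at or under 30 bases. In the replicates that share was 19.2 ± 3.98% of members (SD, n = 3). The share that base composition has in the counts of words with CG was not tested.

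The members fell at 1047 of 13945 protein-coding genes (7.51%), counting for each member the gene of its nearest TSS. Of these genes, 773 had 1 member, 202 had 2, 51 had 3 and 21 had 4 or more. A promoter summit was found at a TSS of 723 of the 1047 genes (69.1%), against 27.8% of all protein-coding genes. Both shares count any TSS of a gene, and the number of start sites per gene was not taken into account. Tlk had the most, 9 members over several internal starts, of which 7 stood beside a bound TSS, and their relative signal ranged between 1.84 and 110.9 times the list median (means of 3 replicates).

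Next came COX7AL2, a gene for a cytochrome c oxidase subunit-like protein, and shn, a zinc finger factor of the BMP response, with 6 members each. The strongest COX7AL2 member lay 1096 bp downstream of its TSS, at 26.3, 20.4 and 21.3 times the list median, in an interval shared with a promoter summit. The shn members were all modest, between 2.40 and 5.67 times. Then tara, a nuclear protein of the Trithorax group, had 5 members, with the strongest at 60.3, 59.5 and 48.8 times. HmgZ, an HMG-box chromatin protein, and the forkhead factor CHES-1-like also had 5 each, with their strongest at 42.6 ± 5.34 and 14.4 ± 1.38 times (SD, n = 3). The genes ps and bowl had 5 members too, with lower summed signals of 3020 and 2397, against 6662 at CHES-1-like. At CHES-1-like 2 members lay 275 bp apart in 1 interval, and replicate 2 had a peak over only 1 of them.

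In 13 of the 19 gene lists, the share of genes with a member was above that of all protein-coding genes. These 13 lists were also high at promoters, with 46.7 to 85.2% of genes bound at a TSS, against 27.8% of all protein-coding genes. The lists and the members were chosen with earlier results of these data known, so the counts below are a description. Of 27 genes of the ecdysone cascade and nuclear receptor family, 12 had a member (44.4%), against 7.51% of all protein-coding genes. The highest were Hr38 and knrl, given above, and Eip75B, an ecdysone-induced nuclear receptor, at 61.7, 72.5 and 57.5 times the list median. Of 28 genes of EGF and FGF receptor signalling, 11 had a member (39.3%). They included pnt, the ETS effector (31.1 ± 4.68 times), sty, an inhibitor of receptor tyrosine kinase signalling (25.6 ± 4.72 times), and pyr, an FGF ligand (11.99 ± 2.51 times; SD, n = 3).

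Among 72 developmental transcription factors 25 had a member (34.7%), led by pros, which acts in neural differentiation, at 28.3, 39.4 and 24.2 times the list median. Lim1 followed at 19.1 ± 4.35 times and lola at 14.5 ± 2.92 times. BMP signalling had 8 of 23 genes (34.8%), with Dad, the inhibitory Smad, at 10.1 ± 1.43 times, zfh1 at 6.55 ± 1.71 times and shn as above. Notch signalling had 7 of 25. Beside E(spl)m3-HLH these included the coactivator mam at 12.7 ± 1.81 times and the ubiquitin ligase neur at 8.34 ± 1.21 times (SD, n = 3 for each).

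Synaptic and excitability genes had 12 of 33 (36.4%), with the acetylcholine receptor subunit nAChRalpha5 at 24.4 ± 3.74 times the list median, the potassium channel slo at 18.7 ± 2.66 times and the active zone protein Rim at 13.02 ± 1.13 times. Axon guidance and adhesion genes had 10 of 40, where caps at 9.26 ± 1.38 times and dlg1 at 5.66 ± 0.935 times followed Lar. Muscle structure genes had 8 of 27 (29.6%), with Msp300 at 11.9 ± 1.96 times, Mlp60A at 7.92 ± 0.958 times and Mlc1 at 5.03 ± 0.688 times (SD, n = 3 for each).

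Chromatin regulators of the Polycomb and Trithorax groups had 9 of 30 with a member. Su(z)2, a relative of Posterior sex combs, stood at 62.9, 71.7 and 56.7 times the list median. Trl, the gene of GAGA factor itself, had an intronic member at 24.9, 35.8 and 21.9 times, and the helicase gene kis one at 10.4 ± 1.22 times (SD, n = 3). The Wnt and Hedgehog list, which also holds the homeodomain factor gene hth, had 8 of 33 genes (24.2%). Its fz, hth and hh stood between 4.27 and 7.77 times on average. Toll and Imd signalling had 7 of 31 (22.6%), with the receptors Tl and Tollo at 11.7 ± 1.88 and 11.01 ± 1.48 times and the recognition protein PGRP-SA at 6.87 ± 1.36 times.

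Segmentation genes had 6 of 33 (18.2%), although 26 of the 33 were bound at a TSS. The strongest was slp2 at 31.7 ± 5.53 times the list median, with H15 at 6.64 ± 0.543 and en at 4.41 ± 1.04 times (SD, n = 3 for each). The Hox complexes had 2 of 12 genes, Abd-B with 3 members, the highest at 5.46, 9.97 and 7.11 times, and Antp with 2. The strongest Antp member lay in a peak of replicates 1 and 3 only, at 3.16 and 3.39 times.

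The other 6 lists, of ubiquitously needed, immune effector, cuticle and chemosensory genes, had few members. Among 92 cytoplasmic ribosomal protein genes, 44 (47.8%) were bound at a TSS and 1 had members, RpS23, with 2, the stronger at 2.78, 3.52 and 4.51 times the list median. Among 73 mitochondrial ribosomal protein genes 24 (32.9%) were bound at a TSS and 0 had a member, which allows a share of up to 4.11%. The proteasome list had 9 of 48 bound and 0 with a member, which allows up to 6.25%. Cuticle proteins had 4 of 108 (3.70%), chemosensory receptors 3 of 179 (1.68%) and antimicrobial peptides 1 of 33, edin. The strongest of these, beside the receptor gene Ir47a, lay in an intron of the channel gene SLO2 and stood at 36.7, 37.1 and 35.1 times. A nearest gene is thus only a position.

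The lists differ in how much DNA the rule accepts beside their genes, so the members were also counted per Mb of that DNA. All genes together had 87.3 members per Mb. Polycomb and Trithorax genes had 339.4 per Mb, Notch genes 276.8, BMP genes 263.0, EGF and FGF genes 215.4 and developmental transcription factors 191.0. The order differs from that by share of genes: the ecdysone and nuclear receptor genes, first by share, had 171.0 per Mb, below 7 other lists. Axon guidance and segmentation genes, at 87.1 and 81.2 per Mb, were close to the value for all genes. At the density of all genes, the DNA beside the cytoplasmic ribosomal protein genes would hold 4.55 members, against the 2 found, and that beside the proteasome genes 2.22, against 0. The mitochondrial ribosomal protein genes have only 0.0108 Mb of such DNA, which would hold 0.946 members. What part the room beside these genes has in the counts of 0 was not tested. Cuticle genes, with 0.128 Mb, would hold 11.2 members, against 4, and chemosensory receptors 15.9, against 3. No test of a list was made.

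**Figure D5:**
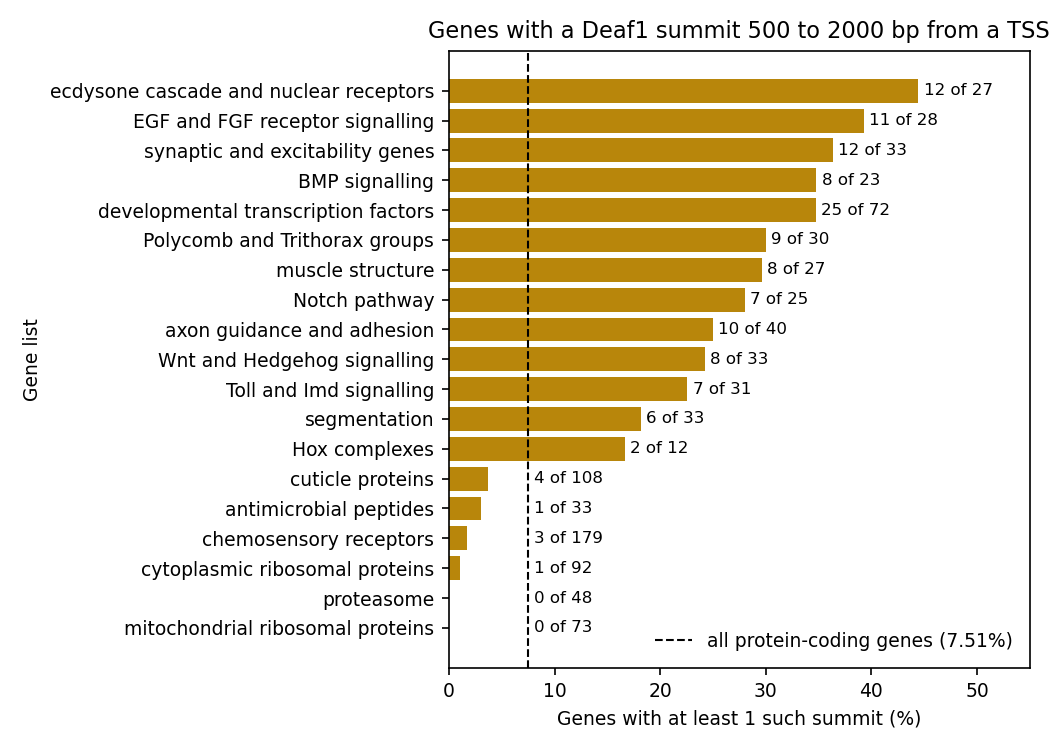
Share of the genes in each of 19 lists that had at least 1 member nearest to 1 of their TSSs (linear axis; counts beside the bars), with all protein-coding genes, 7.51%, as a dashed line. Nuclear receptors were highest by this share, at 44.4%, and the 6 lists at the bottom, from cuticle proteins to mitochondrial ribosomal proteins, lay at 3.70% or below.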

How the data were processed

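Deaf1-GFP ChIP-seq peak lists of 3 biological replicates and the IDR set (selected by the irreproducible discovery rate) were used, on dm6 per the labels. The authors deposited a signal per peak, a −log10 q-value and a summit offset; per the file headers, each replicate list was called against 1 control alignment. Signal served to rank and describe peaks inside 1 list; neither the −log10 values nor the pooled list was used. Which aligner, caller and IDR threshold were used is not given in the sources used here. Depth is unknown, so intervals cover counting over peaks only. Nothing says how independently the replicates were raised, and sign-flip p-values measure only the spread between these samples. McNemar p-values rest on counts over the members of the IDR set and hold no spread between replicates. Some members are neighbours, since 102 intervals held more than 1 member.

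Genes came from Ensembl release 115 (19607 TSSs of 13945 protein-coding genes) and sequence from RefSeq, on the same assembly. Replicate values use the 8667 strongest of each list's 30000 peaks or, for single members, the signal of that replicate's closest summit in a peak covering the member, divided by its list median. Words were sought on both strands in 101 bp windows with exact McNemar tests, adjusted over 15 words or 2080 6-mers; differences between classes were tested over replicates by sign flips. Placement and word tests were tested on simulated data. Genes named are those nearest the 12 strongest members, the 6 with the most members, up to 3 per list by highest signal, and those of the 3 strongest members at non-coding starts; sequences were the 6 strongest and the 6 with most TTCGG outside 1 arm. An older symbol matched 4 listed names, and 1 had no unique match. Members and lists were chosen with earlier results of these data known. Alternatives were a stricter IDR cut, RefSeq genes, narrower positions, other windows and overlaps, and leaving out each replicate. Python 3.11.15, pandas 2.3.3 and scipy 1.17.1 were used.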

Additional observations from a re-analysis of the deposited data

How the results depend on the processing

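Of the 119 alternative values computed, 63 were classed as unchanged and 56 as moved. No ratio or difference changed direction. Only the TTCGG difference between summit and flank carried a p-value of its own, which stayed under 0.05 by the exact McNemar test. The difference was classed as unchanged throughout, although it was 8.40 points with the flank to the left and 15.3 points in the stricter set. Tests of the other words, the comparison of sides and the gene lists were not among these values. The intronic share in the stricter set, 65.0%, was near the 63.3% of the accepted DNA. RefSeq genes gave the same 1428 members. The stricter set, the 4333 summits of highest signal, held 615 members at 515 genes: 65.0% intronic, 59.5% upstream, 99.3% in all replicates, 45.5% beside a bound TSS, 12.8% sharing an interval and 7.48% at a non-coding TSS. Its density ratio to distal was 2.86 and its signal ratio to promoter 0.823. TTCGG differed by -7.92 points from promoter and -3.999 from distal, signal with the word over without was 1.24, median G+C 47.5%, and 28 6-mers were called at summits. Beyond 1000 bp were 818 members at 641 genes: 68.1% intronic, 51.0% upstream, density ratio 2.37, 61.4% beside a bound TSS, 4.28% sharing an interval, 6.48% at a non-coding TSS and TTCGG -2.13 points from distal. Without shared intervals the values were 70.8% intronic, 51.6% upstream, density ratio 2.32, signal ratios 0.695 to promoter and 1.03 to distal, and 52.6% beside a bound TSS. Windows of 100 bp a side gave 79 6-mers and -0.861 points from distal. Summits within 100 bp gave 93.1% in all replicates, reciprocal overlap of 50% gave 66.0%, and a 250 bp promoter window 47.1% bound. Means over replicate lists were 93.4% in all replicates, signal ratio 0.754, 5.56% sharing and 6.13% at a non-coding TSS. Leaving out each replicate in turn gave density ratios of 2.58 to 2.64, signal ratios of 0.750 to 0.756 to promoter and 1.05 to 1.08 to distal, 53.3 to 53.8% upstream, 69.0 to 69.8% intronic and 54.6 to 56.1% beside a bound TSS. It gave 5.19 to 5.95% sharing an interval, 6.02 to 6.26% at a non-coding TSS, 97.1 to 97.8% in all remaining replicates, and TTCGG differences of -5.74 to -4.89 points from promoter, -1.95 to -1.51 from distal and 11.2 to 11.7 from the flank.

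No paired analysis was possible because the design has 1 group. The stricter set leaves fewer members and fewer promoter summits by construction, the narrower band leaves fewer members, and other causes were not tested. These limits bear on every value: depth is unknown, no untagged sample was used, and 3 replicates cannot carry a sign-flip p below 0.25. A word match is not a binding event, and the nearest gene is not shown to respond.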

Other observations

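The density of members on the large arms ran between 82.8 members per Mb of accepted DNA on 2L and 93.0 on X, with 86.8 on 2R, 89.2 on 3L and 87.9 on 3R. Chromosome 4, which is largely heterochromatic, held 5 members, 28.2 per Mb, and 28.2 ± 9.78 per Mb over the replicate lists (SD, n = 3). Over the replicate lists, 2L was the lowest of the large arms at 78.8 ± 0.571 per Mb, and X had 88.4 ± 3.64, 2R 89.3 ± 2.25, 3L 88.2 ± 2.46 and 3R 86.4 ± 0.927.

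Starts of annotated transposable elements were approached less than their share of the DNA. Within 500 bp of such a start lay 14 members (0.980%; 1.12 ± 0.0834% over the replicate lists, SD, n = 3), while 4.32% of the accepted DNA lies that close. How well peaks can be called in repeated DNA was not tested. Genes annotated ncRNA showed the opposite balance, with 5.18% of members, against 3.27% of the accepted DNA, within 500 bp of their starts, and 5.59 ± 0.314% over the replicate lists. The 4 members within 500 bp of a snoRNA start and the 2 within 500 bp of a tRNA start were too few to describe further.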
